A study of Drosophila melanogaster with 12 samples.

Results

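The proteasome subunit genes of Drosophila melanogaster were followed through ovaries in which SETDB1, wde or Nup154 had been knocked down in the germline. Members were all genes whose symbol starts with Prosalpha or Prosbeta, or with Rpn or Rpt and a digit, which gave 48 of the 17023 genes counted. Symbols ending in R or T, with or without a digit, were taken as copies: 16 members were copies and 32 were general subunits. The general subunits comprised 7 alpha ring genes, 7 beta ring genes, 6 Rpt ATPases and 12 Rpn non-ATPases. The copies comprised 5 of the alpha ring, 6 of the beta ring, 3 of Rpt ATPases and 2 of Rpn non-ATPases.

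Poly(A) RNA of ovaries dissected 1 to 3 days after eclosion was sequenced. The libraries used here are SETDB1, wde and Nup154 germline knockdowns (GKD), young controls titled NGVP16 and young controls titled virgin, with 2 libraries in each of the 5 sets. The virgin titles differ, 1 reading DcrVirgin and the other VIRGIN, and the titles do not say whether these 2 libraries share a genotype. Titles of the knockdowns and NGVP16 carry a running number that the virgin titles lack. SETDB1, encoded by egg, is a histone H3K9 methyltransferase, wde encodes its cofactor, and Nup154 encodes a nuclear pore protein whose knockdown the series uses as a developmental control. Not given in the sources used here are the driver and RNAi lines, and no label says that replicates came from separate flies, so p-values measure the spread between libraries, which may be technical. Total counts ran from 7351948 to 20162235 per library.

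The proteasome degrades proteins tagged with ubiquitin. Its core particle is a barrel of stacked rings: alpha subunits form the outer rings and the gate, and beta subunits form the inner rings that hold the proteases. The regulatory particle caps the barrel, with Rpt ATPases that unfold the substrate and Rpn subunits that bind ubiquitin, remove it or hold the particle together. In Drosophila, several subunits have a second gene, and many of these copies are known for expression in the male germline.

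The libraries themselves differed in ways that bear on what follows. Nup154 fell in the libraries labelled Nup154 GKD (log2 fold change -1.28 ± 0.31, SE, adjusted p = 0.0121 against NGVP16). It was also lower in wde GKD (-1.02, adjusted p = 0.0308) and at -0.87 in SETDB1 GKD (adjusted p = 0.0678). Between wde GKD and Nup154 GKD it did not pass the test (0.26, adjusted p = 0.708), so its fall does not check the Nup154 label. The targets of the other knockdowns did not pass the test, so those labels could not be checked this way either. In SETDB1 GKD, egg was at -0.60 ± 0.32 (SE, adjusted p = 0.206). The mean of wde was 83.7 ± 13.1 CPM in wde GKD and 93.0 ± 70.6 CPM in NGVP16 (SD, n = 2 each). CPM here are counts scaled to a common library size after TMM normalization. Muscle sheath genes held 2.27% to 2.89% of the counts in knockdowns and 0.295% to 0.456% in young controls, with all 13 genes detected in every library. Hemocyte genes held 0.804% to 1.3% and 0.193% to 0.482%, with 7 or 8 of the 8 genes detected in each library. Eggshell genes held 0.00558% to 0.152% in knockdowns and 0.322% to 0.869% in young controls, and germline and oocyte genes held 0.0619% to 0.139% and 0.317% to 0.636%, with 9 to 14 of 14 and 9 of 9 genes detected. The part of these shifts in the results on proteasome genes was not tested, and in bulk RNA, fewer cells of a type and less RNA per cell cannot be told apart.

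The general subunits formed a narrow band of expression in every library, with the exception of Prosalpha1. On the scale of CPM per kilobase of exon, averaged over the 5 sets, the other 31 general subunits lay between 85.8 for Rpn13, a ubiquitin receptor, and 203 for Prosbeta5, the chymotrypsin-like protease. The highest of the 31 stood 2.05 times (Nup154 GKD 1) to 4.79 times (NGVP16 1) above the lowest within a library. Prosalpha1 had at most 45 counts in a library and a level of 0.65 CPM per kilobase, and did not pass the filter on low counts. Its copy Prosalpha1R lies beside it on the same strand and had 1 count in all, so the level of this alpha subunit is uncertain and is not interpreted further. The copies lay far below the general subunits, led by Rpt3R at 4.32 and Rpt6R at 1.61 CPM per kilobase.

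With the 3 knockdown sets averaged against the 2 young control sets, 24 of the 31 general subunits tested were lower and 0 were higher. Across all 10105 genes tested, 24.9% were lower and 32.2% were higher (edgeR quasi-likelihood test, Benjamini-Hochberg adjusted p at 0.05). The median log2 fold change of the 31 was -0.58, beside 0.12 over all genes, and all 31 values were below 0. The 24 comprised 5 of 6 alpha ring genes, 7 of 7 beta ring genes, 2 of 6 Rpt ATPases and 10 of 12 Rpn subunits. Before any correction for exon length, the medians were -0.78 for the alpha ring, -0.73 for the beta ring, -0.34 for the Rpt ATPases and -0.50 for the Rpn subunits.

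**Figure D1:**
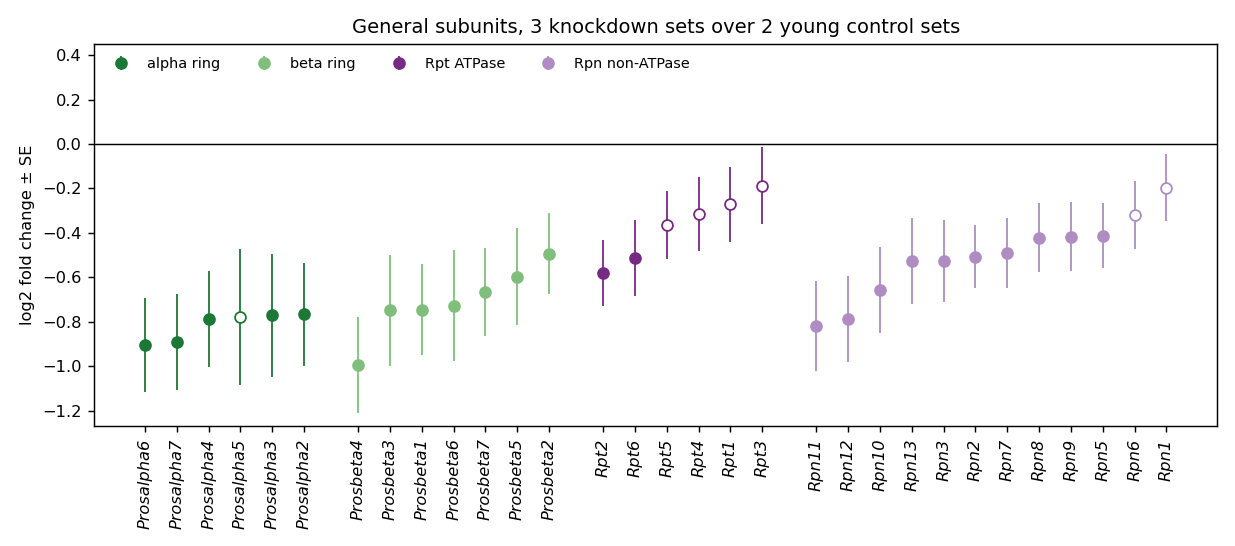
Log2 fold change with SE (vertical axis) of the 31 general subunits tested, averaged over the 3 knockdown sets against the 2 young control sets, by role and ordered by value within each role. Filled points passed the adjusted p threshold, open points did not, and all lie below 0, with Prosbeta4 lowest at -0.99 and Rpt3 highest at -0.19.

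The count of 24 changed with the scaling and with single libraries, and the share of all genes called in those fits is not given here. Fits without 1 library have 4 residual degrees of freedom, and that without 2 libraries has 3, beside 5 in the main fit. Whether calls fell more for these subunits than for all genes is therefore not shown. Scaling by cytoplasmic ribosomal protein genes, of which 22 of 79 were lower and 4 higher with a median of -0.66, left 0 of 31 called, with a median of -0.04. Against the NGVP16 pair alone, 6 were lower, and 1 was lower when SETDB1 GKD 1 and wde GKD 1 were both left out, 2 settings added after seeing the data. Leaving out 1 library at a time gave 8 to 27 calls: 8 without Nup154 GKD 1, 9 without wde GKD 1, 10 without Nup154 GKD 2 or virgin 1, and 11 without SETDB1 GKD 1.

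Among the alpha ring genes, which build the gated outer rings, Prosalpha6 and Prosalpha7 had the lowest fold changes. Prosalpha6 had 143 and 142 CPM in SETDB1 GKD, 120.1 and 150.03 in wde GKD and 166 and 166 in Nup154 GKD, against 338 and 170.1 CPM in NGVP16 and 331 and 265 in virgin ovaries. All 6 knockdown libraries lay below all 4 young controls, and NGVP16 2 was the nearest control. The log2 fold change was -0.90 ± 0.21 (SE, adjusted p = 0.00641). For Prosalpha7 the knockdown libraries ran 136 to 166 CPM with a median of 146, and the young controls 187 to 390.1 with a median of 257 (-0.89 ± 0.22, SE, adjusted p = 0.00739). Its groups did not overlap either. Prosalpha4 fell by 0.79 ± 0.22 on the log2 scale (SE, adjusted p = 0.0129), and Prosalpha2, at -0.77, was the highest of the ring. Prosalpha5 did not pass the test at -0.78 ± 0.31 (SE, adjusted p = 0.0547).

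The beta ring held the lowest value of all general subunits, that of Prosbeta4, a structural subunit without protease activity. It had 102 and 94.1 CPM in SETDB1 GKD, 82.5 and 102 in wde GKD and 93.3 and 96.4 in Nup154 GKD, against 233 and 119.5 CPM in NGVP16 and 236 and 169 in virgin ovaries. The knockdown libraries lay within 82.5 to 102 CPM, below every young control. The log2 fold change was -0.99 ± 0.21 (SE, adjusted p = 0.00429), a level 0.503 times that of the controls, and it was the member still lower without SETDB1 GKD 1 and wde GKD 1 (adjusted p = 0.037, with a range of 5.83e-05 to 0.346 over its alternatives).

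The 3 catalytic subunits were lower by less than Prosbeta4, and Prosbeta1 lay near the median of the beta ring (-0.73). Prosbeta1, the caspase-like protease, ran 74.8 to 107 CPM with a median of 88.2 in knockdowns and 93.5 to 193 with a median of 157 in young controls (-0.74 ± 0.20, SE, adjusted p = 0.013). Prosbeta5 ran 169.8 to 221 CPM with a median of 190.0 in knockdowns and 203 to 443 with a median of 259.6 in young controls (-0.60 ± 0.22, SE, adjusted p = 0.0429). Prosbeta2, the trypsin-like protease, was the highest of the ring, with 158.5 to 209.7 CPM and a median of 175 in knockdowns and 197 to 316 with a median of 248 in young controls (-0.49 ± 0.18, SE, adjusted p = 0.0436). For each of the 3 proteases the knockdown and control ranges overlapped, with NGVP16 2 the lowest control in each case. Prosbeta2 and Prosbeta5 kept their calls in 9 and 8 of 20 alternative settings, and Prosbeta1 in 17.

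The Rpt ATPases, which form a hexameric ring on the barrel, had a median of -0.34 with both young sets and -0.46 without NGVP16 1, where the medians were -0.62 for the alpha ring, -0.50 for the beta ring and -0.44 for the Rpn subunits. Rpt2 was lowest: it ran 131 to 197 CPM with a median of 155 in knockdowns and 174 to 294 with a median of 249.8 in young controls (-0.58 ± 0.15, SE, adjusted p = 0.00948). Rpt6, at -0.51 ± 0.17 (SE, adjusted p = 0.0293), was the other member of the ring past the threshold, and its groups did not overlap. Rpt6 shares 182 bases (13%) of its exons with CG1801 on the other strand. With the strand setting of the counts not stated, reads there cannot be told apart. In all, 13 general subunits share exon bases with a gene on the other strand, and 0 with a gene on the same strand. Rpt3 was the highest at -0.19 ± 0.17 (SE, adjusted p = 0.378), with 107 to 165 CPM and a median of 139.6 in knockdowns and 123 to 225 with a median of 145 in young controls. Rpt1, Rpt4 and Rpt5 did not pass the test, with values of -0.27, -0.32 and -0.36.

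Of the Rpn subunits, Rpn11, the deubiquitinase that removes ubiquitin chains from substrates, was lowest. It had 156 and 177 CPM in SETDB1 GKD, 144 and 152 in wde GKD and 143 and 165 in Nup154 GKD, against 369 and 189.5 CPM in NGVP16 and 283 and 259 in virgin ovaries. The groups did not overlap, and the log2 fold change was -0.82 ± 0.20 (SE, adjusted p = 0.00822). Rpn12, a subunit of the lid, fell by 0.79 ± 0.19 (SE, adjusted p = 0.00798). Rpn1, a scaffold of the base like Rpn2, was highest at -0.20 ± 0.15 (SE, adjusted p = 0.285), and Rpn6 did not pass at -0.32. Rpn2 was lower at -0.51 ± 0.14 (SE, adjusted p = 0.0147), with 273 to 308 CPM in knockdowns and 332 to 524 in young controls. In all, 8 of the 31 general subunits had all 6 knockdown libraries below all 4 young controls: Prosalpha6, Prosalpha7, Prosbeta3, Prosbeta4, Rpn2, Rpn10, Rpn11 and Rpt6. Over all genes tested, 13.9% did so, and 19.9% had all knockdown libraries above the controls, as did 0 general subunits.

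Set by set against NGVP16, few of these differences passed the test. SETDB1 GKD gave 0 calls among the 31 general subunits, beside 14.6% of genes higher and 9.51% lower, and 4 of the 31 had an unadjusted p under 0.05, as did 3892 of the 10105 genes. wde GKD gave 0 calls, beside 21.3% of genes higher and 14.2% lower, and 13 of the 31 had an unadjusted p under 0.05, as did 4896 of the 10105 genes. By the Wald test of DESeq2, 3 of the 31 in SETDB1 GKD and 8 in wde GKD passed the adjusted threshold, all lower. The share of all genes called by that test is not given here. Nup154 GKD gave 3 lower and 0 higher, beside 20.8% of genes higher and 16.1% lower. The medians of the 31 were -0.49 for SETDB1 GKD, -0.53 for wde GKD and -0.47 for Nup154 GKD, and 26 of 31 were below 0 in all 3, comparisons that share their control libraries.

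The 3 subunits lower in Nup154 GKD were Prosalpha7 and the lid subunits Rpn5 and Rpn8, the second the partner of Rpn11. Rpn5 had 214 and 215 CPM in Nup154 GKD, 305 and 355 in SETDB1 GKD and 259 and 302 in wde GKD, against 380.4 and 356 in NGVP16 (-0.78 ± 0.23 for Nup154 GKD, SE, adjusted p = 0.0277). Rpn8 had 143 and 142 CPM in Nup154 GKD, against 274 and 216 in NGVP16 (-0.78 ± 0.25, SE, adjusted p = 0.0352). Both Nup154 GKD libraries lay below the NGVP16 libraries for both genes. Prosalpha7 had 139 and 136 CPM, against 390.1 and 187 in NGVP16 (-1.07 ± 0.34, SE, adjusted p = 0.0376). The 3 calls did not hold when either Nup154 GKD library was left out, and the number rose when NGVP16 2 was left out. Ribosomal protein scaling gave 0. The share of all genes called in those fits is not given here.

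NGVP16 1 stood apart in its proteasome genes. Summed over the core particle, its level was 4076 CPM beside 4381 for the regulatory particle, a ratio of 0.93, while in the other 9 libraries the ratio ran 0.513 to 0.612. Core genes were higher in NGVP16 1 than in NGVP16 2 by a median of 1.06 on the log2 scale and regulatory genes by 0.33, beside -0.02 over all genes. That difference between the NGVP16 replicates ran with exon length, with a Spearman rho of -0.82 over the 31 general subunits and -0.60 over 9889 genes, which share the same pair of libraries. Ribosomal protein genes held 22.7% of the counts in NGVP16 1, and 7.18% to 15.1% in the other libraries.

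**Figure D2:**
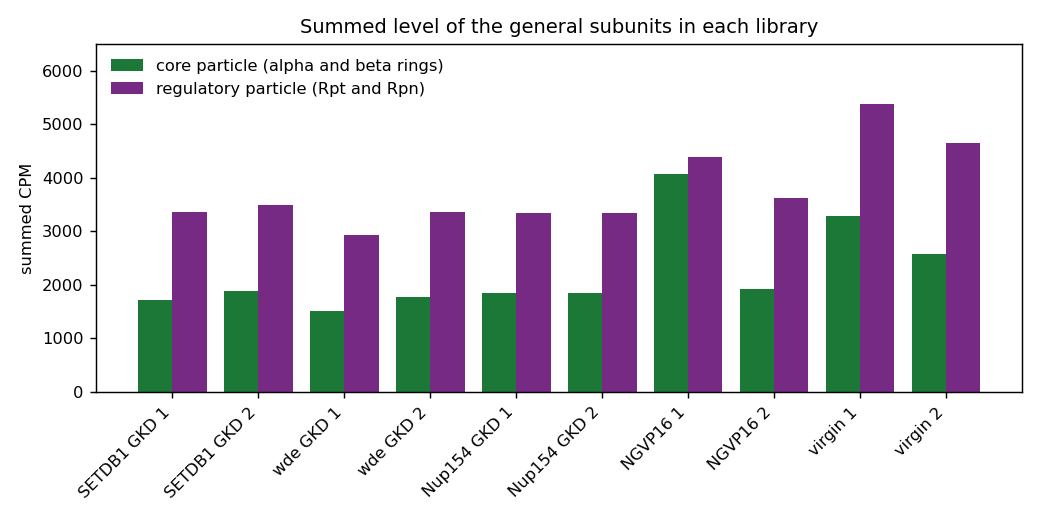
Summed CPM (vertical axis) of the 14 core particle genes (green) and the 18 regulatory particle genes (purple) in each of the 10 libraries, 1 bar per library and particle. The core sum is 1511 to 1881 in the knockdowns and 1921 to 4076 in the young controls, with the highest bar for NGVP16 1.

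The contrast between core and regulatory genes moved with that library. Against NGVP16, the medians of the 13 core genes were -0.81 for SETDB1 GKD, -0.91 for wde GKD and -0.76 for Nup154 GKD, and those of the 18 regulatory genes were -0.26, -0.37 and -0.20. Core genes are shorter, with alpha and beta genes at 815 to 1215 bases of exon and Rpt and Rpn genes at 995 to 3412. The rho of log2 fold change with exon length over the 31 was 0.82, 0.83 and 0.60 for the 3 knockdowns, beside 0.15, 0.14 and 0.23 over all genes. With the exon length trend removed, it was 0.56 for SETDB1 GKD, 0.50 for wde GKD and -0.10 for Nup154 GKD. Over all genes it was then -0.06, -0.05 and -0.03. Without NGVP16 1 the core medians were -0.16, -0.33 and -0.20 and the regulatory medians -0.16, -0.31 and -0.22, so the contrast between the particles was not seen with NGVP16 2 as the control. More general subunits were called lower over all knockdowns when NGVP16 1 was left out, with the share of all genes in that fit not given here.

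**Figure D3:**
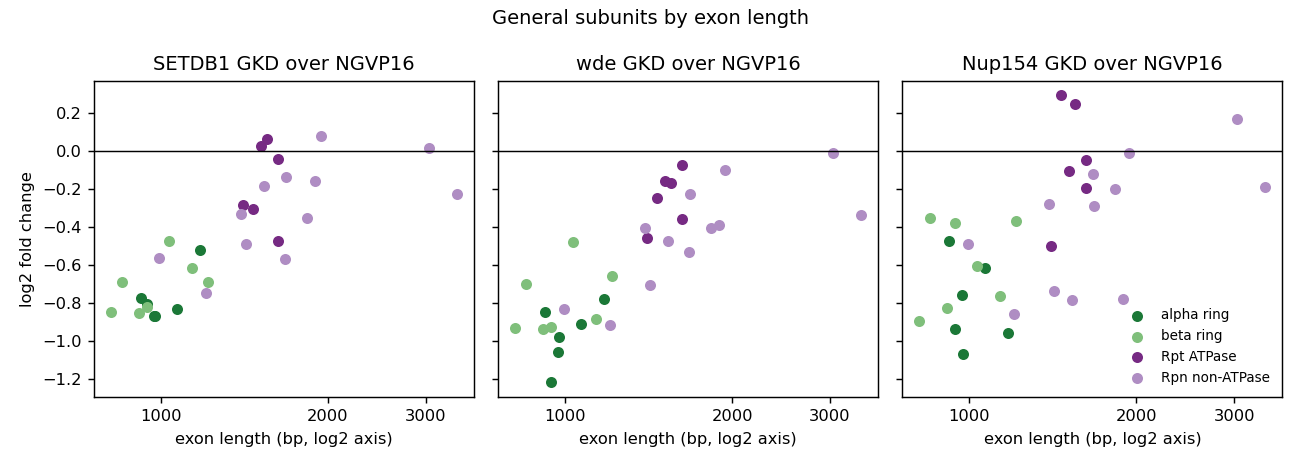
Log2 fold change (vertical axis) of the 31 general subunits against exon length in bases (horizontal axis, log2), 1 panel per knockdown over NGVP16, coloured by role. Short alpha and beta ring genes lie lowest and the longer Rpt and Rpn genes nearer 0, with rho of 0.82 for SETDB1 GKD, 0.83 for wde GKD and 0.60 for Nup154 GKD.

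Among the knockdowns themselves, the general subunits gave 0 calls. This held for SETDB1 GKD against Nup154 GKD, where 3.68% of genes were called, for wde GKD against Nup154 GKD, with 1.42%, and for SETDB1 GKD against wde GKD, with 0.287%. At an unadjusted p under 0.05 there were 3, 0 and 0 of the 31, beside 2247, 1829 and 1392 of all genes, and DESeq2 called 1, 0 and 0. The 3 were Rpn5 (0.62 ± 0.23), Rpn8 (0.60 ± 0.25) and Rpt4 (-0.60 ± 0.26) in SETDB1 GKD against Nup154 GKD, with adjusted p of 0.159, 0.194 and 0.221 and errors as SE. Virgin against NGVP16 ovaries also gave 0 calls, beside 1.64% of genes, with 3 of 31 and 1842 of all genes at an unadjusted p under 0.05, and the median of the 31 was 0.20.

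The copies were at or near the limit of detection with few exceptions. Of the 16, 3 passed the filter and were tested (Rpt3R, Rpt6R and Prosbeta2R2), 9 had at least 3 counts in some library, and 7 had at most 2 in any: Prosalpha1R, Prosalpha3T, Prosalpha4T1, Prosalpha4T2, Prosalpha6T, Prosbeta4R1 and Prosbeta5R2. Prosalpha4T1 had 0 counts in all 10 libraries. A count of 0 over the 2 libraries of a set allows up to 3 counts, or 0.114 to 0.148 CPM, an upper limit for counting error only. The summed level of the 16 copies was 22.4 and 19.7 CPM in SETDB1 GKD, 15.1 and 10.2 in wde GKD and 7.55 and 4.42 in Nup154 GKD, against 10.3 and 2.82 in NGVP16 and 3.74 and 4.83 in virgin ovaries. The general subunits summed to 4439 to 5366 CPM in knockdowns and 5545 to 8663 in young controls.

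**Figure D4:**
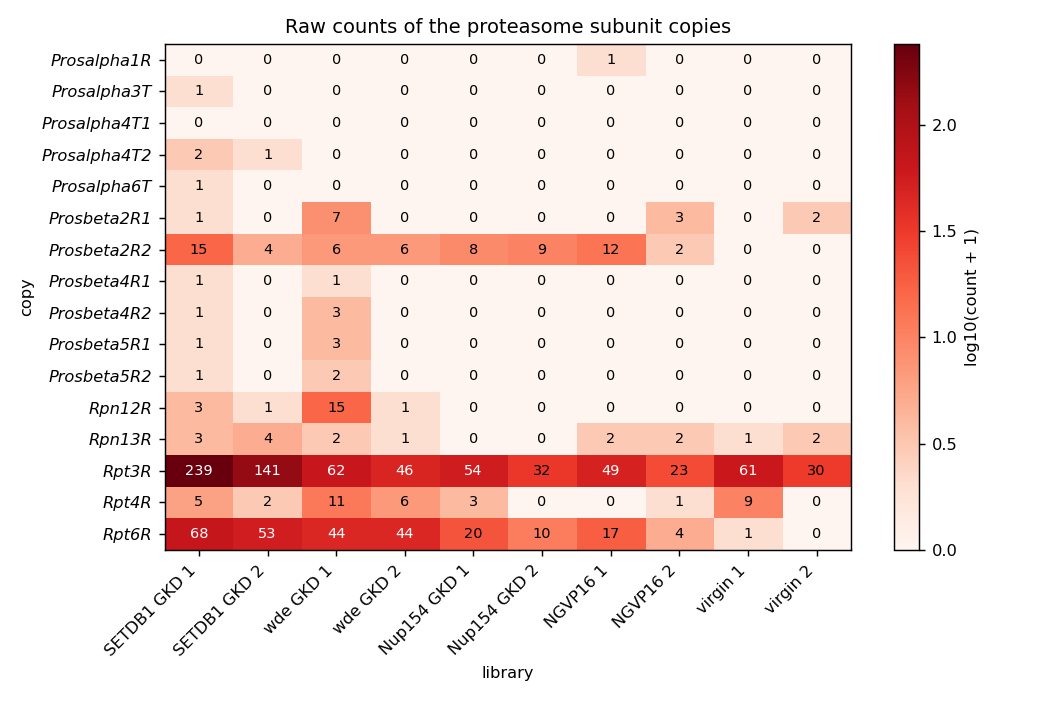
Raw counts of the 16 copies (rows) in the 10 libraries (columns), with the count printed in each cell and colour on a log10 scale of count + 1. Rpt3R and Rpt6R carry most counts, Rpt3R with 239 in SETDB1 GKD 1, and most other cells hold 0 to 15.

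Rpt6R, the copy of the ATPase Rpt6 (chromosome arm 3R, 30582198 to 30583697 on the minus strand, dm6), was higher in the knockdowns. It had 68 and 53 counts in SETDB1 GKD (4.45 and 5.07 CPM), 44 and 44 in wde GKD (4.26 and 4.33 CPM) and 20 and 10 in Nup154 GKD (1.78 and 0.867 CPM), against 17 and 4 in NGVP16 (2.16 and 0.322 CPM) and 1 and 0 in virgin ovaries. SETDB1 GKD and wde GKD lay above every other library, Nup154 GKD overlapped NGVP16, and virgin ovaries were lowest. Over the 3 knockdowns against both young sets the log2 fold change was 3.66 ± 0.75 (SE, adjusted p = 0.00327), the 1 call among the 3 copies tested, a share near the 32.2% of all genes that were higher. The call was kept in 19 of 20 alternatives, with adjusted p of 8.17e-05 to 0.208 and fold changes of 1.31 to 6.01.

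That call rests on the virgin pair. Against the NGVP16 pair alone the fold change was 1.31 (adjusted p = 0.208), and set by set it was 1.97 ± 0.91 in SETDB1 GKD (adjusted p = 0.146), 1.82 ± 0.91 in wde GKD (adjusted p = 0.141) and 0.13 ± 0.91 in Nup154 GKD (adjusted p = 0.927), errors as SE. With NGVP16 2 as the lone NGVP16 library, SETDB1 GKD and wde GKD passed, at 3.77 (adjusted p = 0.0278) and 3.57 (adjusted p = 0.0245). Between SETDB1 GKD and Nup154 GKD the difference was 1.84 ± 0.90 (SE, adjusted p = 0.264), between wde GKD and Nup154 GKD 1.69 ± 0.89 (SE, adjusted p = 0.359), and between SETDB1 GKD and wde GKD 0.15. Virgin against NGVP16 gave -4.70 ± 1.26 (SE, adjusted p = 0.103), where both virgin libraries lay below both NGVP16 libraries without passing the test.

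Rpt3R, the copy of the ATPase Rpt3 (arm 3R, 9754735 to 9756510 on the minus strand), was the most abundant copy and stood highest in SETDB1 GKD. It had 239 and 141 counts there (15.6 and 13.5 CPM), 62 and 46 in wde GKD (6.00 and 4.53 CPM) and 54 and 32 in Nup154 GKD (4.80 and 2.77 CPM), against 49 and 23 in NGVP16 (6.23 and 1.85 CPM) and 61 and 30 in virgin ovaries (3.17 and 4.26 CPM). Both SETDB1 GKD libraries lay above all 8 others, and NGVP16 overlapped each of the other sets. The difference did not pass the test, at 1.86 ± 0.63 against NGVP16 (SE, adjusted p = 0.0626), 1.94 ± 0.63 against Nup154 GKD (adjusted p = 0.125) and 1.47 ± 0.62 against wde GKD (adjusted p = 0.346). Against NGVP16 it passed in 5 of 14 alternatives, with adjusted p of 0.0126 to 0.254 and fold changes of 1.23 to 2.89, and DESeq2 gave 1.83 (adjusted p = 0.0228). Rpt3R shares 20 bases of exon with Alg12 on the other strand, and with the strand setting of the counts not stated, reads there cannot be told apart.

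**Figure D5:**
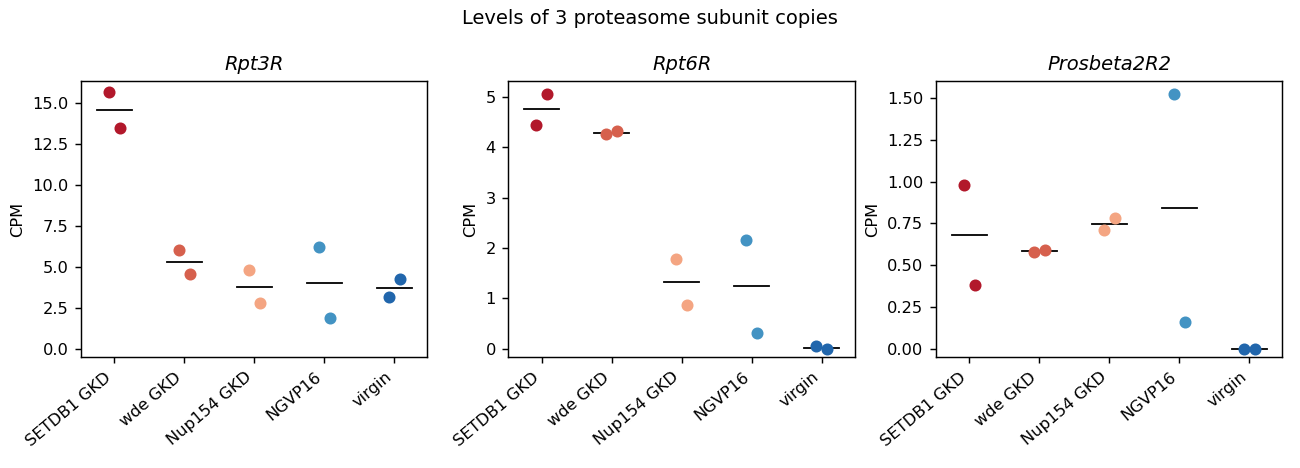
CPM (vertical axis) of Rpt3R, Rpt6R and Prosbeta2R2 in the 2 libraries of each set (points), with the set mean as a line. SETDB1 GKD stands highest for Rpt3R, SETDB1 GKD and wde GKD for Rpt6R, and virgin ovaries are at 0 for Prosbeta2R2.

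Set beside their general partners, the ATPase copies were a small share of the pair. On the scale of CPM per kilobase, Rpt3R made up 10.7% and 9.34% of Rpt3 and Rpt3R together in SETDB1 GKD, 5.67% and 3.58% in wde GKD and 3.02% and 1.9% in Nup154 GKD, against 4.4% and 1.59% in NGVP16 and 1.49% and 3.03% in virgin ovaries. The share was highest in SETDB1 GKD in both libraries, with Rpt3 itself uncalled in every comparison. Rpt6R made up 3.2% and 3.33% of its pair in SETDB1 GKD, 3.75% and 3% in wde GKD and 1.45% and 0.709% in Nup154 GKD, against 1.12% and 0.21% in NGVP16 and 0.0227% and 0% in virgin ovaries. Of the other 7 copies with at least 3 counts in a library, the highest share was 1.97%, that of Rpn12R in wde GKD 1.

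Prosbeta2R2, a copy of the trypsin-like subunit, had 15 and 4 counts in SETDB1 GKD, 6 and 6 in wde GKD and 8 and 9 in Nup154 GKD, against 12 and 2 in NGVP16 and 0 and 0 in virgin ovaries. The knockdowns overlapped NGVP16, and the virgin pair alone was at 0. With 17 counts over the set (95% interval 9.90 to 27.2), Nup154 GKD was 6.54-fold above a floor of 3 counts over the virgin pair. This fold leaves out the counting error of the 17. On the same floor SETDB1 GKD was at 6.47, wde GKD at 5.13 and NGVP16 at 6.05. In NGVP16, 12 of the 14 counts lay in 1 library. The test over all knockdowns did not pass (adjusted p = 0.0524), nor did virgin against NGVP16 (adjusted p = 0.146).

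The remaining 6 copies with a value had at most 15 counts in a library, and counts in 2 to 8 of the 10 libraries. Rpn12R had 3 and 1 counts in SETDB1 GKD and 15 and 1 in wde GKD, against 0 in Nup154 GKD, NGVP16 and virgin ovaries. Its 16 counts over wde GKD lay mostly in wde GKD 1. Rpt4R had 5 and 2 counts in SETDB1 GKD, 11 and 6 in wde GKD and 3 and 0 in Nup154 GKD, against 0 and 1 in NGVP16 and 9 and 0 in virgin ovaries. Prosbeta2R1 had 7 counts in wde GKD 1 and at most 3 elsewhere, Rpn13R at most 4 in any library, and Prosbeta4R2 and Prosbeta5R1 each had 3 in wde GKD 1, 1 in SETDB1 GKD 1 and 0 elsewhere. Prosbeta4R2 shares 69 bases of exon with Or23a on the same strand, so reads there cannot be assigned to either gene.

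The libraries with the most copies detected were also those with the most testis markers detected. At least 1 count was found for 14 of 16 copies in SETDB1 GKD 1, 11 in wde GKD 1 and 3 to 7 in the other 8 libraries. Of 24 testis markers, 21 had counts in SETDB1 GKD 1 and 23 in wde GKD 1, against 4 to 12 in the others. SETDB1 GKD 1, SETDB1 GKD 2 and wde GKD 1 were highest in both the summed level of the copies and the marker share. For SETDB1 GKD 2, that place in the marker share rested on the single gene mia. The order of the other libraries was not the same in both. The markers held 0.00286% and 0.00264% of the counts in SETDB1 GKD, 0.00436% and 0.00124% in wde GKD and 0.00163% and 0.00232% in Nup154 GKD, against 0.000883% and 0.000965% in NGVP16 and 0.000387% and 0.000218% in virgin ovaries. In Nup154 GKD 2 the copies summed to 4.42 CPM, less than the 10.2 CPM in wde GKD 2, where the marker share was lower. Of the 24 markers, 11 had counts in SETDB1 GKD 2, led by mia with 196 and aly with 36, beside 194 and 40 in SETDB1 GKD 1. The 196 of mia were most of the 262 marker counts in SETDB1 GKD 2, and mia also had 60 and 80 counts in NGVP16. In Nup154 GKD, mia held 96 of 188 and 168 of 274 marker counts. Without mia, the marker share of SETDB1 GKD 2 lay below those of both Nup154 GKD libraries. In SETDB1 GKD 2, dj, Mst98Ca and loopin-1 were at 0, beside 8, 4 and 15 in SETDB1 GKD 1. Pif1A, S-Lap1, fzo, ocn and janB had 4, 2, 2, 1 and 1 counts, beside 22, 15, 14, 8 and 4. The part of testis transcripts in the levels of the copies was not tested. Without SETDB1 GKD 1 and wde GKD 1, the log2 fold change of Rpt6R was 3.69, with SETDB1 GKD 2 and its marker counts still in the fit.

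Of 22 other genes of the pathway tested, 10 were lower and 2 higher over all knockdowns, with a median of -0.45, beside 24.9% of all genes lower and 32.2% higher. Against NGVP16, 1 was lower and 1 higher in SETDB1 GKD, beside 9.51% and 14.6% of all genes. In wde GKD 3 were lower and 2 higher, beside 14.2% and 21.3%, and in Nup154 GKD 5 were lower and 1 higher, beside 16.1% and 20.8%. Sem1, a small lid subunit not named as Rpn, had 69.9 and 80.8 CPM in SETDB1 GKD, 66.4 and 77.8 in wde GKD and 45.8 and 45.9 in Nup154 GKD, against 222 and 109 in NGVP16 and 154 and 95.4 in virgin ovaries (-1.19 ± 0.23, SE, adjusted p = 0.00241). All 6 knockdown libraries were below the young controls. REG, the PA28 gamma activator of the core particle, was at -1.12 ± 0.22 (SE, adjusted p = 0.00286), and Uch-L5, a deubiquitinase bound by Rpn13, at -0.94 ± 0.18 (SE, adjusted p = 0.00243).

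The polyubiquitin gene Ubi-p5E was among the 2 higher, with 286 and 313 CPM in SETDB1 GKD, 447 and 451 in wde GKD and 314 and 327 in Nup154 GKD, against 233 and 189.7 in NGVP16 and 131 and 128 in virgin ovaries (1.08 ± 0.15, SE, adjusted p = 0.000443). The knockdown libraries did not overlap the controls. Ubi-p63E, the other polyubiquitin gene, was at 0.87 ± 0.16 (SE, adjusted p = 0.00175). Polyubiquitin genes are made of near-identical repeats, so the division of reads between them is uncertain.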

How the data were processed

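Each library has a deposited file of raw counts by FlyBase gene, which the authors had not normalized. The labels' protocols describe extraction by TRIzol or phenol-chloroform, DNase treatment, poly(A) bead selection and a directional library kit. The submitters' processing notes name HISAT2 2.1.0, featureCounts 1.4.6, DESeq2 1.24.0 and dm6. Not given in the sources used here: the tools' roles, the annotation and the strand setting. Symbols and exon lengths came from Ensembl release 115, which named 16647 of 17023 identifiers.

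The 10 libraries of the knockdowns and young controls were fitted with edgeR 4.0.16 in R 4.3.3: filterByExpr, TMM, 1 mean per set with no replicate block (5 residual degrees of freedom), robust quasi-likelihood fit, and Benjamini-Hochberg adjustment over 10105 genes at 0.05. The adult pair, with 471770 and 682565 counts, was left out. SE is the absolute log2 fold change over the square root of F. Intervals and floors cover counting error only.

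Alternatives changed the scaling, removed a loess trend on exon length, dropped the filter, added the adult pair, used a replicate block, the virgin pair or DESeq2 1.42.0, took symbols ending in R and a digit as general (10 copies, 38 general), or left out libraries. The steps were tested on simulated data. The members and gene lists were chosen with earlier results of these data known. Values are given for copies with at least 3 counts in a library, for up to 6 general subunits past the threshold per direction and comparison, the catalytic subunits, the partners of copies, the extremes of each role, and up to 4 pathway genes past the threshold. Other members are named in counts or as chosen after their values were seen.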

Additional observations from a re-analysis of the deposited data

Results flagged for a closer look

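Rpn9, a lid subunit, averaged 370 CPM, scaled to the total count without TMM, in the adult pair, which the comparisons above leave out. The 2 adult libraries stood at 354 and 385 CPM on that scale, from 167 and 263 counts, and the young controls at 227 and 194 for NGVP16 and 261 and 264 for virgin. Both adult libraries lay above all 4 young controls. The general subunits as a whole were lower in the adult pair, at 0.127% and 0.125% of the counts, against 0.594% to 0.828% in the young controls, and the Rpn genes together held 0.0432% and 0.0441%, against 0.276% to 0.354%. The adult libraries hold 471770 and 682565 counts, the fewest in the series, and the difference was not tested.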

How the results depend on the processing

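Counts of general subunits called against NGVP16 were, for SETDB1 GKD (0), wde GKD (0) and Nup154 GKD (3): 8, 20 and 7 with the exon length trend removed, 5, 9 and 6 against the virgin pair, and 3, 8 and 7 by DESeq2. Upper quartile scaling gave 6 for wde GKD and 7 for Nup154 GKD, no filter 7 and 6, and all 12 libraries 11 and 5. Ribosomal protein scaling gave 0 for Nup154 GKD. Counts under these alternatives are given without the share of all genes called in the same fit. Leaving out 1 library gave 0 to 18, 0 to 20 and 0 to 19. The highest counts came without NGVP16 2. Copies called were 3, 2 and 2 against the virgin pair. For SETDB1 GKD they were 1 with ribosomal protein scaling, with the length trend removed and by DESeq2, and 0 to 2 without 1 library. For wde GKD they were 1 with ribosomal protein scaling and 0 to 1 without 1 library.

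Over all knockdowns against all young controls, general calls (24) were 0 with ribosomal protein scaling, 8 to 27 without 1 library, 6 against the NGVP16 pair alone and 1 without SETDB1 GKD 1 and wde GKD 1. DESeq2 size factors gave 19, and 18 were called against the virgin pair alone. Copies called (1) were 3 with ribosomal protein scaling, 2 with the length trend removed, with all 12 libraries and against the virgin pair alone, 0 against the NGVP16 pair alone, and 1 to 3 without 1 library. SETDB1 GKD against Nup154 GKD gave 2 general calls with the length trend removed, and 1 general and 1 copy call by DESeq2. Virgin against NGVP16 gave 6 general calls with the length trend removed, 0 to 3 without 1 library, and copy calls of 1 by DESeq2 and 0 to 2 without 1 library.

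Ribosomal protein scaling moved the median of all genes to 0.59 over all knockdowns, beside 0.12, and the higher share of calls to 85.6%, beside 56.4%. Removing the length trend moved them to -0.16 and 42.5%. Under ribosomal protein scaling the fold changes turned positive for Prosbeta2 (0.0611), Prosbeta5 (0.0243), Rpn3 (0.034), Rpn5 (0.0716), Rpn7 (0.0359), Rpn8 (0.11), Rpn9 (0.104), Rpn13 (0.0707) and Rpt6 (0.014). Uncalled values also changed sign. Rpt3R in Nup154 GKD (-0.08) was 0.524 with ribosomal protein scaling, 0.0277 with the length trend removed, 0.0343 against the virgin pair and -0.712 to 0.873 without 1 library. Rpt6R in Nup154 GKD (0.13) was -0.114 with upper quartile scaling, -0.0326 with no filter, -0.0119 with 12 libraries and -0.7 to 1.85 without 1 library. Rpt3R in wde GKD was -0.244 to 1.38 without 1 library. The cause of these changes was not tested.

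Replicate numbers did not pair the libraries across all sets: correlations of same-numbered deviations ran -0.179 to 0.396. The highest was that of SETDB1 GKD with wde GKD, whose same-numbered libraries shared part of their deviations. The main fit has no term for this. With a replicate block, general calls were 0 for SETDB1 GKD, 0 for wde GKD and 2 for Nup154 GKD. Counting symbols that end in R and a digit as general subunits changed no count of calls. Counts under 20 in every library limit what can be said of 14 of the 16 copies.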
